A study of Mus musculus with 14 samples.

Results

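The genes described here are 44 mouse genes of the extracellular matrix and the basement membrane, chosen by symbol from the collagens, laminins, nidogens, matrix glycoproteins, elastic fibre genes, small proteoglycans, matrix proteases and protease inhibitors. Of the 44 symbols, 43 had at least 1 probe set of their own on the array and all 43 passed the limit for testing, among 18193 genes with a probe set and 13035 genes tested. The remaining symbol, Fbn1, had no probe set listed under it alone and was not analysed here. Each gene was followed by its brightest probe set over all 14 arrays. The rule goes by symbol and uses no measured value, but the genes were chosen with earlier results of these data known.

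Affymetrix arrays (Mouse Genome 430 2.0) were hybridised with RNA from 3 sources: liver sinusoidal endothelial cells (LSEC), lung endothelial cells and thymus. All mice were of the FVBn background and carried floxed (L/L) alleles named Fk1, Fk2 and Afx in the labels, under a series title that names the FoxO transcription factors. Control mice were MxCre- and the compared mice were MxCre+, written Cre+ below. There were 3 control and 3 Cre+ arrays of LSEC, 2 and 2 of lung endothelial cells, and 2 and 2 of thymus. The controls therefore shared all floxed alleles with the Cre+ mice and differed from them by the Cre transgene. The Mx promoter answers to interferon and is active in many cell types, so it does not restrict deletion to endothelium. The labels give neither the age and sex of the mice nor how Cre was induced or the cells were isolated. The labels do not say whether replicate arrays came from separate animals, so p-values measure only the spread between these samples, which may be technical.

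The basement membrane is a thin sheet under endothelium and epithelium, built from networks of laminin and type IV collagen that nidogens and the proteoglycan perlecan link together. The interstitial matrix beyond it consists of fibrillar collagens, type VI collagen, elastic fibres and small proteoglycans, made mainly by fibroblasts and mural cells. Matricellular proteins such as thrombospondins and CCN2 act on cell adhesion and growth factors rather than as structural parts, and metalloproteinases and their TIMP inhibitors set the turnover of both matrices. Liver sinusoids differ from most capillaries in that their fenestrated endothelium lies on a sparse matrix without a continuous basement membrane.

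Levels are given as the deposited values after quantile normalization, on a scale read as log2 from its range of 0 to 13.8, since no source used here states the log base. Deposited array medians lay between 6.75 and 7.04, and arrays of 1 group correlated over tested genes with r between 0.97 and 0.987. The targeted genes were read first as a check of the labels. Foxo1 (probe set 1416983_s_at) was at 8.58, 8.48 and 8.0 in control LSEC and at 4.36, 4.58 and 5.44 in Cre+ LSEC. Of its 3 other probe sets, 2 were lower in Cre+ samples of all 3 sources, and a dim one was at 2.7 and 4.42 in control and Cre+ LSEC. The brightest of them, 1416981_at, differed by -0.93 in LSEC, -0.51 in lung and -1.19 in thymus. In lung the control and Cre+ means of 1416983_s_at were 8.29 and 7.0, and in thymus 8.23 and 6.43. For Foxo4 (1456753_at) these means were 7.12 and 4.98 in LSEC, 7.47 and 6.37 in lung, and 8.09 and 4.85 in thymus. Means of the other, dim Foxo4 probe set (1422149_at) were 6.58 and 6.48 in LSEC, 6.67 and 6.06 in lung, 6.33 and 6.26 in thymus. Foxo3 (1434832_at) had means of 9.12 and 8.59 in LSEC, and was not lower in Cre+ lung (8.56 and 8.67) or Cre+ thymus (8.92 and 9.60); whether this probe set lies in the deleted part is not known here. All 12 pan-endothelial markers were above 6.87, the lower limit for testing, in LSEC and lung, against 4 of 12 in thymus, for which the labels name a tissue and no cell sort.

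In LSEC, 12 of the 43 matrix genes passed the test between Cre+ and control arrays (limma, Benjamini-Hochberg adjusted p under 0.05 over all tested genes), 6 higher and 6 lower. Of all genes tested, 6.06% passed in this comparison, 2.81% higher and 3.25% lower. At an unadjusted p under 0.05 there were 22 matrix genes, against 19.9% of all genes. The genes that fell were Nid2, Lama4, Ccn2, Sparcl1, Col1a2 and Adamts4, and those that rose were Col13a1, Col5a2, Col18a1, Bgn, Col6a3 and Lamc1. The median difference of the 43 genes was -0.04 (all genes tested 0.01), so the genes did not move to 1 side. Sparcl1, Col6a3 and Adamts4 were under the limit for testing in both LSEC groups and were tested because of their level in the other sources, highest in lung. Without the filter on dim genes 7 of the 43 passed (2.93% of all genes), and with only the LSEC arrays in the fit 6 passed (2.75%). Levels of 17 matrix genes did not overlap between the groups, where 23.7% of all genes did not. In bulk samples of this kind, fewer cells of a type and less RNA per cell cannot be told apart.

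Among the linkers of the basement membrane, Nid2 (nidogen 2, which bridges laminin and type IV collagen) had the lowest p of all matrix genes. Its level was 7.97, 7.86 and 7.73 in control LSEC and 5.84, 6.07 and 6.18 in Cre+ LSEC. Every Cre+ array lay far below every control array, and all 3 Cre+ values were under the limit of 6.87. The difference was -1.82 ± 0.12 on the log2 scale (SE, n = 3 and 3), a 3.54-fold lower level, with a limma adjusted p of 9.43e-06. Nid1, the other nidogen, was at 11.63, 11.63 and 11.68 in controls and 11.63, 11.56 and 11.85 in Cre+ arrays. These groups overlapped, and the difference was 0.03. Hspg2, which encodes perlecan, differed by -0.28 (limma adjusted p = 0.239).

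The laminins, heterotrimers of an alpha, a beta and a gamma chain, were represented by 6 genes, of which 1 fell and 1 rose. Lama4, the alpha 4 chain typical of vessel walls, was at 9.48, 9.21 and 8.86 in controls and at 8.13, 8.37 and 8.08 in Cre+ arrays. The groups did not overlap, and the difference was -0.99 ± 0.15 (limma adjusted p = 0.0026). Its second probe set gave -0.61. Lamc1, the gamma 1 chain shared by most laminins, was at 9.91, 9.94 and 9.84 in controls and at 10.50, 10.32 and 10.59 in Cre+ arrays. All Cre+ arrays were above all controls, and the difference was 0.58 ± 0.08 (limma adjusted p = 0.0017). The second Lamc1 probe set gave a difference of 0.13, and with the mean of both probe sets Lamc1 no longer passed (adjusted p = 0.123). Lama2, Lama5, Lamb1 and Lamb2 did not pass.

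Type IV collagen, the network-forming collagen of all basement membranes, gave nearly the same values in both genotypes. Col4a1 was at 13.29, 13.33 and 13.20 in control LSEC and at 13.40, 13.28 and 13.49 in Cre+ LSEC, and Col4a2 at 12.28, 12.55 and 12.15 against 12.47, 12.11 and 12.65. The groups overlapped for both genes, with differences of 0.11 and 0.09. Col18a1, a collagen with heparan sulphate chains whose end fragment is endostatin, was at 8.35, 7.79 and 8.11 in controls and at 8.34, 9.26 and 9.30 in Cre+ arrays. The first Cre+ array lay within the control range and the other two lay above it. The difference of 0.88 ± 0.23 was just past the threshold (limma adjusted p = 0.0467), and it missed the threshold in 17 of 24 alternative settings. Its relative Col15a1 was dim in all 6 LSEC arrays, between 3.27 and 4.61.

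Col13a1, a collagen that stays anchored in the cell membrane at adhesion sites, had the largest rise of the 43 genes. It was at 7.15, 6.96 and 6.76 in control LSEC and at 8.85, 7.83 and 8.66 in Cre+ LSEC. No Cre+ array overlapped the controls, though the second was about 1 unit below the other two. The difference was 1.49 ± 0.26, a 2.82-fold higher level (limma adjusted p = 0.0065).

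The fibrillar and type VI collagens did not move together. Col5a2, a chain of the type V collagen that controls fibril diameter, was at 9.08, 8.50 and 9.19 in controls and at 9.92, 9.77 and 9.99 in Cre+ arrays. These groups were separate, with a difference of 0.97 ± 0.16 (limma adjusted p = 0.00389), and a second probe set gave 1.69. Col6a3, the largest chain of the microfibril-forming type VI collagen, was at 5.66, 6.20 and 6.20 in controls and at 6.98, 6.72 and 6.56 in Cre+ arrays. All but 1 of these 6 levels were under the limit of 6.87, so this rise of 0.73 ± 0.17 (limma adjusted p = 0.0286) was measured at the dim end of the scale. Its partners Col6a1 and Col6a2 differed by -0.13 and -0.10. In the other direction, Col1a2, a chain of type I collagen, was at 8.14, 8.12 and 8.85 in controls and at 7.66, 7.88 and 7.52 in Cre+ arrays. The lowest control and the highest Cre+ array were close but did not overlap. The difference was -0.69 ± 0.17 (limma adjusted p = 0.0402), lost in 14 of 24 alternative settings. Col5a1, the partner chain of Col5a2, differed by 0.57 ± 0.17 and missed the threshold (limma adjusted p = 0.0858).

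Among the adhesive and matricellular glycoproteins, 2 of 6 passed, both lower. Ccn2, also called connective tissue growth factor and a known target of YAP and TEAD, was at 13.17, 13.35 and 13.13 in control LSEC and at 11.88, 12.21 and 12.22 in Cre+ LSEC. The groups were about 1 unit apart without overlap, and the difference was -1.12 ± 0.15 (limma adjusted p = 0.0011). Sparcl1, a relative of SPARC, was at 4.89, 4.82 and 5.13 in controls and at 4.15, 2.68 and 4.08 in Cre+ arrays. All 6 levels lay below 6.87, at the dim end of the scale, and the difference was -1.31 ± 0.31 (limma adjusted p = 0.0291). Thbs1, thrombospondin 1, an inhibitor of angiogenesis, was at 9.59, 9.97 and 10.28 against 9.58, 9.24 and 8.86. All Cre+ values were under all control values, the nearest by 0.01, and the difference of -0.72 missed the threshold (limma adjusted p = 0.0503). Sparc, a collagen-binding glycoprotein, differed by 0.08.

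Of the small proteoglycans, which bind collagen fibrils, only Bgn (biglycan) passed. It was at 11.97, 11.79 and 12.32 in controls and at 12.82, 12.62 and 12.91 in Cre+ arrays. The Cre+ arrays were all above the controls, by 0.76 ± 0.13 (limma adjusted p = 0.00506), and the other 2 probe sets of Bgn gave 0.99 and 1.03. All 4 proteases had a difference below 0, from -0.64 to -0.09, and 1 of them passed. This was Adamts4, an aggrecan- and versican-cleaving protease, at 6.79, 6.80 and 6.77 in controls and at 6.18, 6.51 and 5.76 in Cre+ arrays. The Cre+ arrays were all lower and more spread, and all 6 levels were under 6.87. The difference was -0.64 ± 0.15 (limma adjusted p = 0.0322). Mmp14, the membrane-bound activator of Mmp2, differed by -0.44 and missed the threshold (limma adjusted p = 0.0785). Timp1, Timp2 and Timp3, the inhibitors of metalloproteinases, differed by between -0.04 and 0.39, and none passed.

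None of the 4 elastic fibre genes passed in LSEC, but 2 were close. Fbln2 (fibulin 2) was at 6.95, 6.32 and 7.45 in controls and at 8.05, 8.54 and 7.44 in Cre+ arrays, a difference of 1.11 ± 0.30 (limma adjusted p = 0.057). The highest control and the lowest Cre+ array overlapped, at 7.45 and 7.44, and the second, much dimmer probe set of Fbln2 gave -1.03. Fbln5 (fibulin 5), which helps elastin assemble, was at 6.93, 6.78 and 7.07 against 7.31, 8.29 and 7.74, a difference of 0.86 ± 0.24 (limma adjusted p = 0.0634). Eln and Lox, which encode elastin and the lysyl oxidase that crosslinks it, had levels that overlapped between genotypes.

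**Figure D1:**
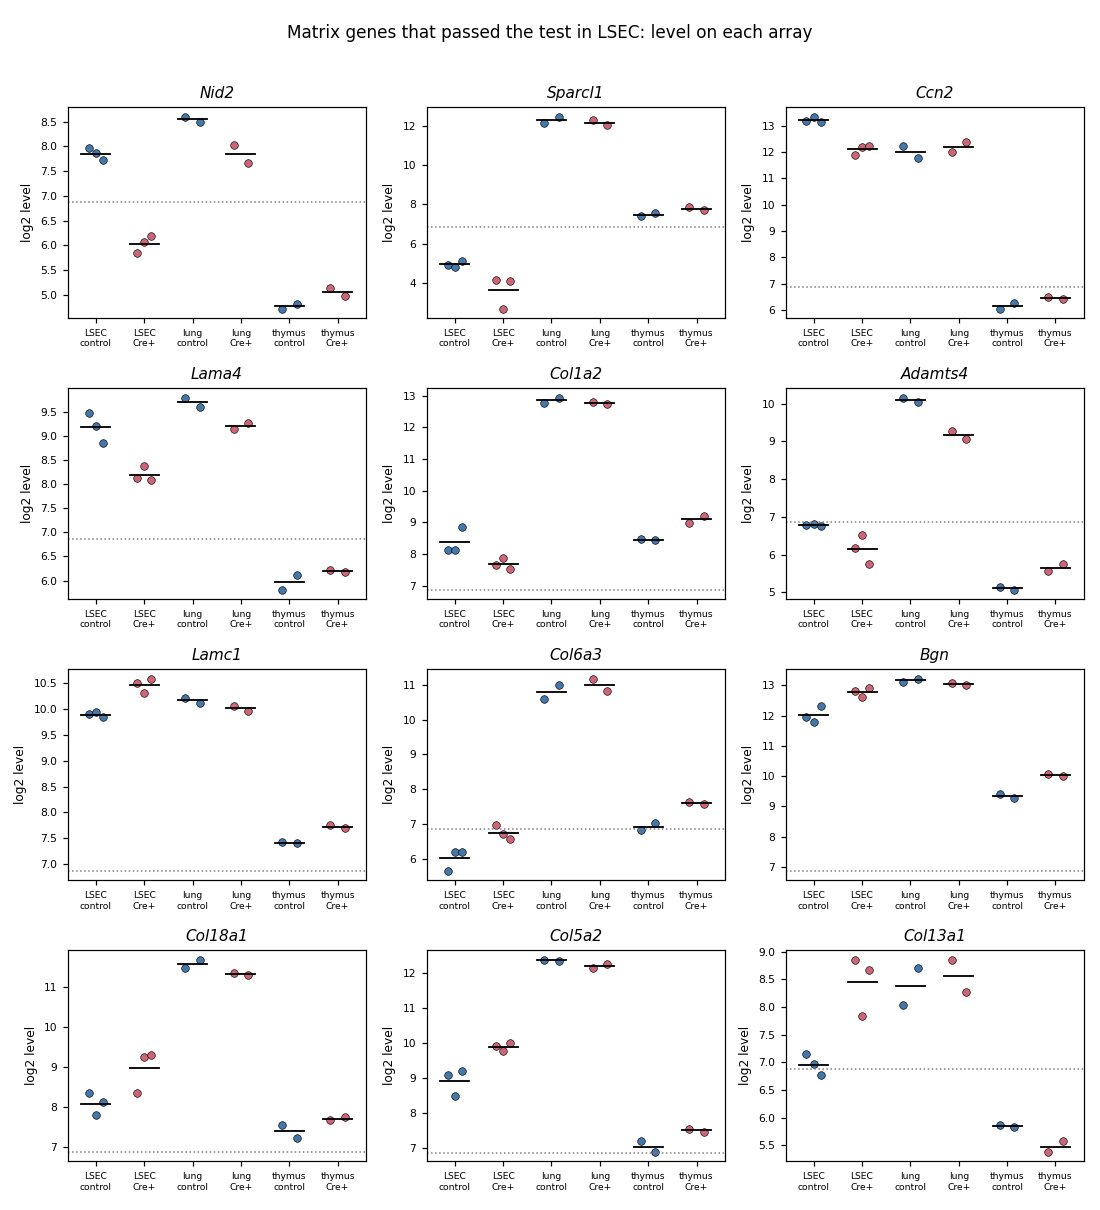
Normalized log2 level (vertical axis) of the 12 matrix genes that passed in LSEC, in the 6 groups; each dot is 1 array, blue control and red Cre+, the bar is the group mean and the dotted line is the limit for testing, 6.87. In LSEC the Cre+ dots of Nid2 lie between 5.84 and 6.18, under all control dots, and those of Col13a1 between 7.83 and 8.85, above all control dots.

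For several matrix genes the range among LSEC arrays of 1 genotype was wider than the difference between genotype means. Fn1, which encodes fibronectin, was at 9.59, 8.65 and 9.75 in controls and at 8.04, 9.68 and 8.07 in Cre+ arrays. Dcn (decorin) was at 8.51, 7.08 and 8.46 against 7.62, 8.78 and 7.43, and Timp1 at 8.13, 7.76 and 8.82 against 7.85, 8.89 and 7.83. In these 3 genes, as in Col1a1, Lox and Lamb1, control array 2 was the lowest control and Cre+ array 2 the highest Cre+ array; these genes were singled out after their values were seen. Over all 43 genes, control array 2 was the lowest control for 20 genes and Cre+ array 2 was the highest Cre+ array for 18, against 30.9% and 39.1% of all genes tested; Cre+ array 3 was the highest for 18 as well, against 30.8%. The summed level of 18 stellate cell, fibroblast and mural markers was 12.21, 12.24 and 12.35 in the controls and 12.38, 12.33 and 12.24 in the Cre+ arrays, ranges that overlapped.

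Other cell type markers were read beside these changes. Of 10 markers of liver sinusoidal endothelium, 8 fell in Cre+ LSEC, and their summed level was between 14.07 and 14.64 in controls and between 12.21 and 13.09 in Cre+ arrays. Of 12 pan-endothelial markers, 3 fell (Cldn5, Robo4 and Pecam1), with summed levels of 14.39 to 14.69 and 14.06 to 14.34. Of 15 tested stellate, fibroblast and mural markers, 1 fell (Pdgfra, -0.62). Of 8 markers of lung endothelium, 1 rose (Ednrb, 1.84), while 6 of the 8 were below 0, with a median difference of -0.04. Their summed level was 12.14 to 12.36 in control LSEC and 13.08 to 13.37 in Cre+ LSEC. In control lung it was lower, at 11.38 to 11.43, so the list did not mark lung by its sum. Of 3 tested hepatocyte markers 1 rose (Ttr, 0.54), and of 7 thymic epithelial markers 1 fell (Prss16, -1.08). In a list of 14 stress genes that cell isolation can induce (immediate early and heat shock), 6 fell, among them Egr1 by 1.76 and Atf3 by 1.59 on the log2 scale. No marker of these lists was at the floor of 0 in any group. The part of these shifts in the matrix results was not tested.

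Other genes of the matrix were taken from 5 further lists. In LSEC none of 19 other basement membrane genes passed. Of 29 other interstitial genes, Vcan (versican, a large proteoglycan and a substrate of Adamts4) rose by 1.75 ± 0.33 (limma adjusted p = 0.00975) and Ltbp2, a latent TGF-beta binding protein, fell by 0.85 (adjusted p = 0.0412), the latter from a dim 5.48. Of 19 collagen processing genes, 2 rose and 2 fell. Serpinh1, the collagen chaperone HSP47, rose by 1.02 ± 0.15 (limma adjusted p = 0.00215) and Pcolce, an enhancer of procollagen cleavage, by 0.36. Bmp1, the procollagen protease itself, fell by 0.62, and P4hb, a subunit of prolyl hydroxylase, by 0.49. Of 23 other proteases and inhibitors, Reck (1.09) and Ctsk (1.04) rose, Reck from a control mean of 6.33, under the limit. Mmp12 fell by 1.66, Ctsl by 0.77 and Adamts12 by 0.54. Of 29 matrix receptors, Bcam, a laminin receptor, rose by 1.11 and Itga9 by 0.46. Itga8, an integrin chain that binds nephronectin and fibronectin, fell by 1.44 (limma adjusted p = 7.43e-05), to a Cre+ mean of 6.07, under the limit. Cd47, a thrombospondin receptor, fell by 0.35.

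In lung endothelial cells, none of the 43 matrix genes passed (limma), where 0.107% of all genes tested did. At an unadjusted p under 0.05 there were 4, against 4.56% of all genes. Adamts4 was at 10.16 and 10.04 in control lung and at 9.28 and 9.06 in Cre+ lung, a difference of -0.93 ± 0.19 (limma adjusted p = 0.157). Nid2 was at 8.60 and 8.49 against 8.03 and 7.67, a difference of -0.70 ± 0.14 (limma adjusted p = 0.179). Lama4 was at 9.79 and 9.60 against 9.14 and 9.26, a difference of -0.49 (limma adjusted p = 0.936). For these 3 genes both Cre+ arrays were under both controls, the same side as in LSEC, but none passed. Fbln5 was at 9.06 and 8.79 against 9.68 and 9.96, a difference of 0.90 (limma adjusted p = 0.764), also without overlap. Groups did not overlap for 21 matrix genes, with 38.4% of all genes doing the same. With array weights in the fit 2 matrix genes passed (0.414% of all genes), and without Cre+ LSEC array 3 it was 1 (0.123%). Ccn2 overlapped between genotypes in lung, at 12.24 and 11.79 against 11.99 and 12.37. In the same lung arrays 10 of 12 pan-endothelial markers were below 0, with a median of -0.36 and none passing, and their summed level was 13.42 to 13.67 in controls and 13.14 to 13.23 in Cre+ arrays. The part of this shift in the lung values was not tested.

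In thymus, 2 of the 43 genes passed and both rose, where 0.414% of all genes passed, 0.176% as higher. Sparc was at 9.0 and 8.80 in control thymus and at 9.71 and 9.70 in Cre+ thymus. Both Cre+ arrays were above both controls, by 0.81 ± 0.10 (limma adjusted p = 0.00696), and the 2 other probe sets gave 0.77 and 0.32. Col3a1, the fibrillar type III collagen of reticular fibres, was at 9.96 and 9.92 in controls and at 10.62 and 10.77 in Cre+ arrays. The groups were separate, by 0.75 ± 0.12 (limma adjusted p = 0.0183), and a second probe set gave 0.83.

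Counting these 2, the difference in thymus was above 0 for 39 of 43 matrix genes, where 55.3% of all genes were above 0. The median over the matrix genes was 0.32, against 0.02 over all genes tested. At an unadjusted p under 0.05, 17 matrix genes were on the higher side and none on the lower, against 12.4% of all genes on either side. The arrays of 35 matrix genes did not overlap between genotypes, against 41.6% of all genes. These counts include genes with a mean under the limit for testing, 17 of the 43 in control thymus and 12 in Cre+ thymus. The 5 fibrillar collagens differed by 0.46 to 0.96 and the 3 chains of type VI collagen by 0.67 to 0.70. Col6a2 was at 8.49 and 8.35 in controls and at 8.99 and 9.25 in Cre+ thymus (limma adjusted p = 0.0562). Nid1, with a control mean of 6.81, under the limit, differed by 0.54 (limma adjusted p = 0.0554). Dimmer probe sets of Nid1 gave -0.23 and 0.62, and those of Col5a1 gave -0.10 and 0.40. Postn, periostin, a matricellular protein of fibroblasts, was at 8.81 and 8.72 against 9.58 and 9.78, and Mmp14 at 8.80 and 8.45 against 9.23 and 9.35. In each of these pairs the Cre+ arrays were higher without overlap, and neither Postn (limma adjusted p = 0.135) nor Mmp14 (adjusted p = 0.113) passed. Of the TIMP inhibitors, Timp2 was at 9.77 and 9.72 against 9.96 and 10.13, a difference of 0.30 without overlap (limma adjusted p = 0.458), and Timp1 (-0.02) and Timp3 (-0.05) overlapped between genotypes.

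In the same thymus arrays the summed level of stellate, fibroblast and mural markers was 12.48 to 12.53 in controls and 12.57 to 12.68 in Cre+ arrays, with a median difference of 0.20 over 15 tested markers, 14 of them above 0 and none passing. Thymic epithelial markers summed to 13.58 to 13.77 in controls and 13.87 to 14.02 in Cre+ arrays, with 7 of 7 above 0, and thymocyte markers to 14.90 to 14.93 and 14.76 to 14.87. Pan-endothelial markers overlapped, at 10.21 to 10.30 and 10.23 to 10.36. Among other matrix lists, 25 of 29 interstitial and 16 of 19 basement membrane genes were above 0, and none passed. The part of these shifts in the thymus values was not tested. With 2 arrays a group, the 2 passing genes depended on the setting: none passed without control array 2 (0.107% of all genes), 1 without Cre+ array 2 (0.215%), 4 without Cre+ array 1 (1.77%), and none with only the thymus arrays in the fit (0.0307%).

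**Figure D2:**
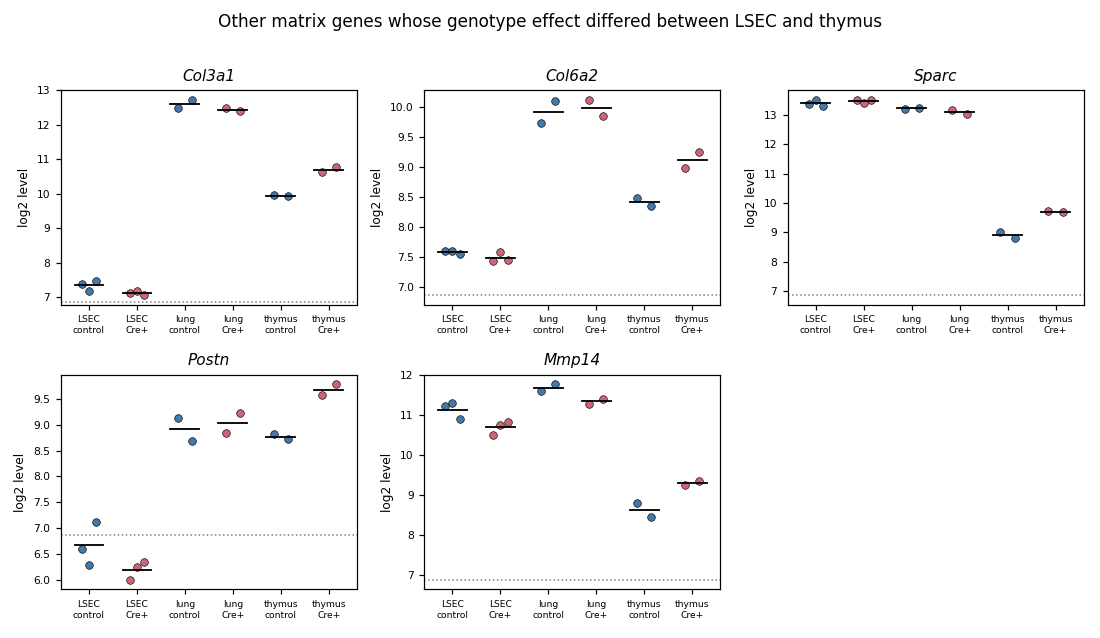
Normalized log2 level (vertical axis) of Col3a1, Col6a2, Sparc, Postn and Mmp14 in the 6 groups; each dot is 1 array, blue control and red Cre+, the bar is the group mean and the dotted line is the limit for testing. In thymus the Cre+ dots lie above the control dots in all 5 panels, while in LSEC the Cre+ dots of Mmp14 (10.49 to 10.82) lie below the control dots (10.89 to 11.29).

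The genotype effects themselves were compared between sources, since a gene that passes in one and not in another has not been shown to differ. Between LSEC and lung, 3 of the 43 matrix genes had effects that differed (limma test of the difference, adjusted p under 0.05), against 0.614% of all genes. Ccn2 had an effect of -1.12 in LSEC and 0.17 in lung, a difference of -1.28 ± 0.23 (limma adjusted p = 0.0386). Nid2 differed by -1.13 ± 0.19 (adjusted p = 0.027), with -1.82 in LSEC and -0.70 in lung. Lamc1 differed by 0.73 ± 0.13 (limma adjusted p = 0.0375), with 0.58 in LSEC and -0.16 in lung. Of 24 alternative settings, Lamc1 missed the threshold in 18, Ccn2 in 16 and Nid2 in 9. None of the 43 genes passed without control lung array 1 or 2, without Cre+ lung array 1, or without control LSEC array 1 or 2, and 1 passed without Cre+ lung array 2 or either control thymus array. Over all genes the share fell too, from 0.614% to between 0.0307% and 0.337% in these 8 settings.

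Between LSEC and thymus the effects of 11 matrix genes differed, 10 of them with the lower effect in LSEC, against 2.34% of all genes and 1.44% with the lower effect. Nid2 had the largest difference, -2.12 ± 0.19 (limma adjusted p = 0.000317), from -1.82 in LSEC and 0.30 in thymus, and it passed in all 24 alternative settings. Thymus levels of Nid2 were dim, at 4.72 and 4.81 in controls and 5.14 and 4.98 in Cre+ arrays. Ccn2 (-1.43), Lama4 (-1.22), Adamts4 (-1.19) and Col1a2 (-1.33) were genes that fell in LSEC. Adamts4 was under the limit in all 4 LSEC and thymus groups. Its second, dimmer probe set gave -0.60 in LSEC and -0.35 in thymus, where the brightest gave 0.55. With the mean of its probe sets the Adamts4 difference did not pass. Postn (-1.39), Mmp14 (-1.11), Col3a1 (-0.97), Col6a2 (-0.80) and Sparc (-0.73) did not pass in LSEC, and of these Sparc and Col3a1 rose in thymus. Of the 24 alternative settings, Postn missed the threshold in 18, Col1a2 in 14, Col6a2 in 13 and Adamts4 in 10. Lama4 missed in 8, Mmp14 in 6, Sparc in 5, Col3a1 in 3 and Ccn2 in 1. Col13a1 was the only one of the 11 with the higher effect in LSEC, by 1.86 ± 0.41 (limma adjusted p = 0.0415). This difference missed the threshold in 16 of 24 alternative settings. Col13a1 was at 5.86 and 5.83 in control thymus and at 5.38 and 5.57 in Cre+ thymus, under the limit in all 4 arrays. The count was lower without some single arrays: 2 without control thymus array 2 (0.49% of all genes), 3 without Cre+ thymus array 2 (0.729%), 6 without control thymus array 1 (1.13%), and 7 without control LSEC array 1, Cre+ LSEC array 1 or Cre+ LSEC array 3 (1.69% to 2.02%). Without Cre+ thymus array 1 it was 11, where 5.09% of all genes passed. In the 5 further matrix lists, Itga8 had a lower effect in LSEC than in lung (-1.44, limma adjusted p = 0.0105) and than in thymus (-1.51, adjusted p = 0.00421). Against thymus, Ltbp2 (-1.48, limma adjusted p = 0.0499) and Mmp9 (-0.84, adjusted p = 0.0482) also had a lower effect in LSEC.

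**Figure D3:**
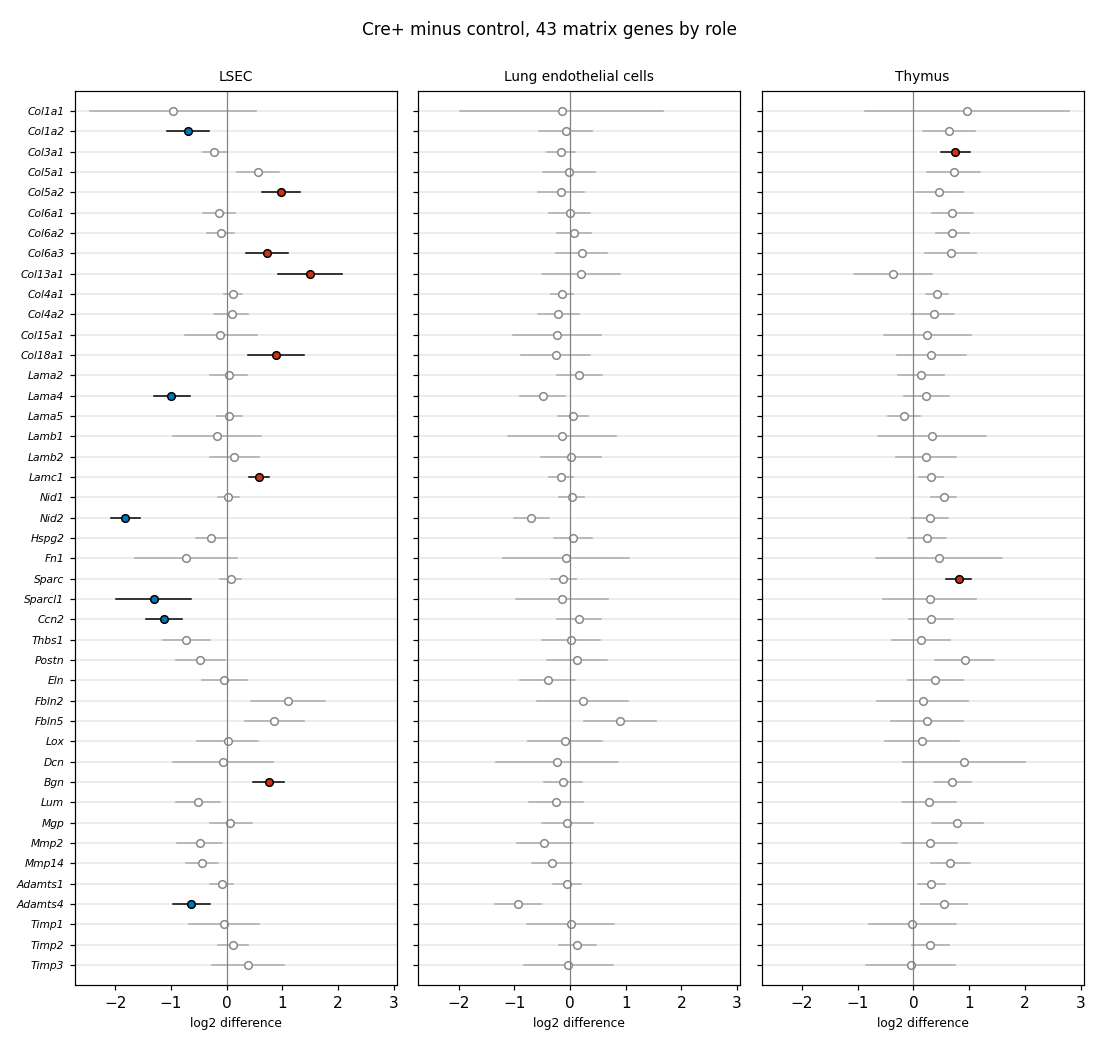
Cre+ minus control log2 difference (horizontal axis) of the 43 matrix genes, ordered by role, in LSEC, lung and thymus; points are estimates, lines are 95% intervals, filled red and blue points passed as higher and lower, and open points did not pass. The LSEC panel holds 6 red and 6 blue points, the lung panel none, and the thymus panel has 39 of 43 points to the right of 0.

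The control arrays show how the 3 sources differ in these genes, from the same 7 control arrays. Against lung, control LSEC differed in 37 of 43 matrix genes, 34 lower and 3 higher, where 46.1% of all genes passed, 20.2% lower and 25.9% higher. The median difference was -2.33 (all genes tested 0.08). In control LSEC 10 of the 43 had a mean under the limit for testing, against 0 in control lung. Genes under the limit in both LSEC groups, Sparcl1, Col1a1, Col15a1 and Col6a3 among them, were tested only through their level in another source. The filter therefore favoured their lower side in LSEC. Without the filter 36 passed, 34 of them lower, where 32.7% of all genes passed. Among interstitial roles, medians were -4.49 for the 5 fibrillar collagens, -3.23 for type VI collagen, -4.34 for the elastic fibre genes and -1.94 for the small proteoglycans with Mgp. Among basement membrane roles they ranged widely, from -4.72 for Col15a1 and Col18a1 to -0.39 for the laminins, -0.07 for nidogens and perlecan and 0.56 for type IV collagen. The adhesive and matricellular glycoproteins had a median of -2.36, the proteases -1.93, the TIMP inhibitors -1.08, and Col13a1 differed by -1.41. No test between roles was run.

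Sparcl1, with the largest difference of the 43 genes, was at 4.82 to 5.13 in control LSEC and at 12.16 and 12.48 in control lung, a difference of -7.37 ± 0.35 (limma adjusted p = 8.05e-08). Mgp, matrix Gla protein, an inhibitor of calcification, was at 6.75 to 7.05 in LSEC and at 13.74 in both control lung arrays. That lung value is close to the top of the scale, so the difference of -6.88 may be understated there. Col1a1 was at 4.99, 4.91 and 7.08 in LSEC against 12.11 and 12.17 in lung, a difference of -6.48 ± 0.76, the widest error of the 43 genes. Col15a1 (-5.94), Eln (-5.44), Col6a3 (-4.77), Timp1 (-3.85), Mmp2 (-3.68) and Lamb1 (-3.58) were the genes with the largest difference in other roles, all lower in LSEC. No LSEC array of any of these genes reached its lung levels.

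The 3 matrix genes higher in LSEC than in lung were Ccn2, Col4a1 and Col4a2. Ccn2 was at 13.13 to 13.35 in LSEC and at 12.24 and 11.79 in lung, a difference of 1.2 ± 0.16 (limma adjusted p = 0.000131). Col4a1 was at 13.20 to 13.33 against 12.61 in both lung arrays, a difference of 0.67 ± 0.08, and Col4a2 differed by 0.45 (adjusted p = 0.0345), lost in 5 of 22 alternative settings. For 6 genes no difference passed: Sparc (0.17, 95% interval -0.04 to 0.38), Hspg2 (0.23, -0.07 to 0.54), Nid1 (-0.07, -0.28 to 0.13), Adamts1 (-0.07, -0.29 to 0.16), Lamb2 (-0.11, -0.60 to 0.38) and Lama5 (-0.26, -0.52 to -0.01). Sparc, Hspg2, Nid1 and Adamts1 changed sign under other scalings or with the mean of probe sets, where Hspg2 passed as lower in LSEC (-0.32, limma adjusted p = 0.0324).

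Markers of other cells differed between the same arrays. Stellate, fibroblast and mural markers summed to 13.44 and 13.58 in control lung and to between 12.21 and 12.35 in control LSEC, with 15 of 18 and 9 of 18 above the limit. Of 15 tested markers of this list, 7 passed as lower in LSEC and none as higher, with a median difference of -0.21 and a range of -5.58 to 0.28. Lung epithelial markers summed to 13.67 to 13.72 in control lung and to 10.98 to 11.17 in control LSEC. The part of these cells in the lung matrix levels was not tested.

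Against thymus, control LSEC was higher in 27 and lower in 11 matrix genes, where 64.9% of all genes passed, 37.1% higher and 27.9% lower. The largest difference was in Ccn2, at 6.05 and 6.25 in control thymus and higher in LSEC by 7.07 ± 0.16 (limma adjusted p = 3.88e-11). Both type IV collagen genes, 5 of 6 laminins and all 3 of the nidogens and perlecan were higher in LSEC, among them Nid1 by 4.84, Col4a2 by 4.54, Col4a1 by 4.10, Lama4 by 3.22 and Nid2 by 3.09. The second probe set of Hspg2 (perlecan) was not higher, with means of 9.13 in control LSEC and 9.23 in control thymus. Genes lower in LSEC were Col15a1 (-2.96), Col3a1 (-2.59), Sparcl1 (-2.54), Postn (-2.10), Mgp, Mmp2, Dcn, Lum and the 3 type VI chains. Lung endothelial cells were above thymus in all 43 matrix genes, where 52.3% of all genes were above, and 40 of the 43 passed, where 60.5% of all genes passed, 32.7% as higher. In control thymus 17 of the 43 had a mean under the limit for testing, Ccn2 among them, against 10 in control LSEC and 0 in control lung. Genes under the limit in both thymus groups were tested only through their level in another source, so the filter favoured their direction against thymus. The largest of these differences were Thbs1 (6.48), Lox (5.93) and Ccn2 (5.87). Those that did not pass were Postn (0.15), Lum (0.41) and Dcn (1.18). The 3 contrasts share control arrays and are not independent of each other.

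**Figure D4:**
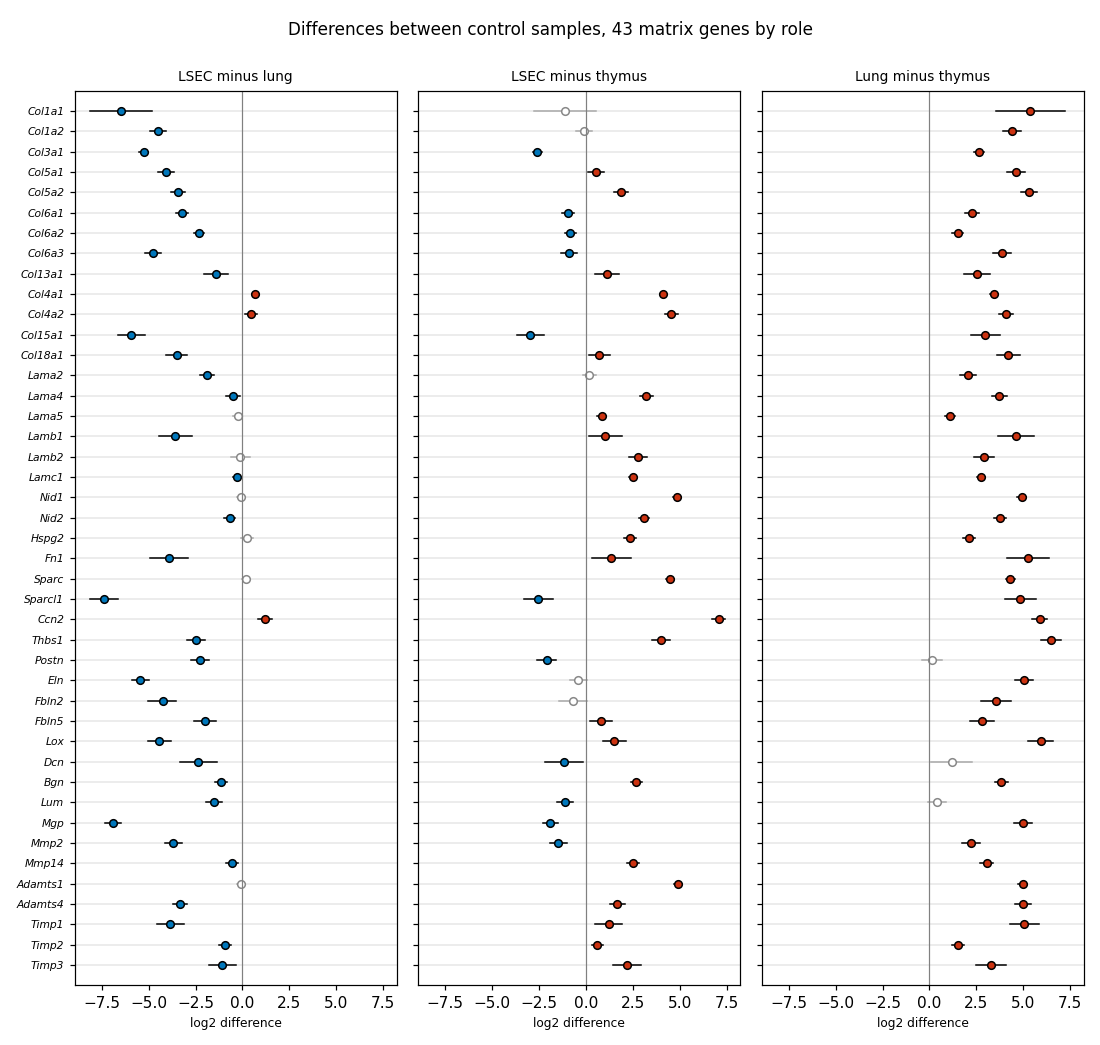
Log2 difference between control groups (horizontal axis) of the 43 matrix genes, ordered by role; points are estimates, lines are 95% intervals, filled red and blue points passed as higher and lower in the first-named source, open points did not pass. In the LSEC minus lung panel the fibrillar collagens lie between -6.48 and -3.44, while Nid1, Hspg2, Sparc, Lama5, Lamb2 and Adamts1 are open points near 0.

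Some of these genes are neighbours in the genome. Col4a1 and Col4a2 lie head to head on chromosome 8, on the minus and plus strand, with start sites at 11312826 and 11312805 in GRCm38.p6, 21 bases apart (RefSeq). Over the 14 arrays their levels had a correlation of 0.996, and those of the neighbours Col6a1 and Col6a2 on chromosome 10 one of 0.994. Dcn and Lum, also neighbours on chromosome 10, had 0.904, whereas Col3a1 and Col5a2 on chromosome 1 had 0.452. These correlations are across 14 arrays of 3 sources, carry mostly the difference between sources, and are given as a description. In LSEC Col5a2 rose by 0.97 while Col3a1 differed by -0.22.

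Promoter windows of 300 bases, from 250 before to 50 after a start, were listed in RefSeq (GRCm38.p6) for 27 of the 43 measured genes, and not for the other 16. Of the 12 genes that passed in LSEC only Bgn, Col13a1, Col18a1, Col1a2 and Col6a3 had a window, so the other 7 could not be searched. The FoxO element GTAAACA, searched on both strands, was in the window of 1 of these genes, Col6a1, and in 3.65% of all 32851 windows. The TEAD element GGAATG was in 5 of them, Col3a1, Col6a2, Col18a1, Nid1 and Timp1, and in 14.7% of all windows; neither element overlaps the other. The FoxO-bearing stretch is shown because it is the only one, and that of Col3a1 because this gene rose in thymus; both were picked after the search. Capitals mark the element, which in Col3a1 reads as its reverse complement. The first lies at chr10:76726219-76726285 on the minus strand, 204 bases before the Col6a1 start, and the second at chr1:45311340-45311405 on the plus strand, 162 bases before the Col3a1 start.
Col6a1: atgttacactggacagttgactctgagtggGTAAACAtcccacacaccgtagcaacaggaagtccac
Col3a1: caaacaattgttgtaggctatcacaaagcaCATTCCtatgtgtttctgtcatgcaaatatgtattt
Col6a1 did not pass between genotypes in any of the 3 sources, with differences of -0.13 in LSEC, 0.00 in lung and 0.69 in thymus. A match of letters is a description of the sequence and was not tested as a binding site.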

How the data were processed

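Biotin-labelled RNA of 14 samples was hybridised to Affymetrix arrays (Mouse Genome 430 2.0), per the labels' protocols. The authors' deposited values, on a scale taken as log2 (0 to 13.8, 223 to 312 values at exactly 0 per array), hold 1 value per probe set for 45101 probe sets; neither the summarisation method nor the log base is stated in the labels or the file, and no detection calls were used. The floor and the top of that scale compress differences of dim and very bright genes, and the number of arrays limits the precision.

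The values were quantile normalized between arrays. Probe sets were named from GEO's platform annotation (34958 with 1 symbol, 932 with several, 9160 with none, 64 array controls), with 34754 symbols updated through gene identifiers to RefSeq. Each gene took its brightest probe set of 1 symbol. A gene was tested if the highest of its tissue means was at least 6.87, the 40th percentile of that value over all probe sets. limma 3.58.1 (R 4.3.3; lmFit and eBayes, trend and robust off) fitted 6 group means over all 14 arrays, with 8 residual and 3.21 prior degrees of freedom, and Benjamini-Hochberg adjustment over 13035 genes at 0.05. Errors beside differences are standard errors, and summed marker levels are log2 of the sum of linear values. The code was tested on simulated data.

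The matrix genes and the lists were chosen with earlier results of these data known, the 14 handling genes after them. Genes given by array are those that passed in a genotype contrast or a difference of effects, or led their role between control sources, plus near misses and genes marked as singled out; up to 4 genes per other list are named, 5 among proteases. Of the 12 matrix genes that passed in LSEC, 5 had a promoter window, none of them with the FoxO element, and 7 could not be searched. The windows of the type IV pair lie within each other's transcripts and are not printed. Alternatives were median centring, deposited values, no filter, the 60th percentile, the mean of probe sets, trend and robust, array weights, only the arrays compared, a block on replicate number and each array left out in turn.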

Additional observations from a re-analysis of the deposited data

Results flagged for a closer look

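Each value here is a genotype effect (Cre+ minus control, log2) in LSEC minus that in another source, listed because it passed the limma test of that difference, adjusted over all 13035 genes tested. Groups held 2 or 3 arrays, too few to look for single arrays that stand apart.

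Against lung, the effect in LSEC was lower for Ccn2 (-1.28, adjusted p = 0.0386) and Nid2 (-1.13, adjusted p = 0.027), and higher for Lamc1 (0.73, adjusted p = 0.0375).

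Against thymus, the effect in LSEC was lower for Nid2 (-2.12, adjusted p = 0.000317), Ccn2 (-1.43, 0.0109), Postn (-1.39, 0.0451), Col1a2 (-1.33, 0.0328), Lama4 (-1.22, 0.0233), Adamts4 (-1.19, 0.0305), Mmp14 (-1.11, 0.022), Col3a1 (-0.97, 0.0095), Col6a2 (-0.80, 0.0413) and Sparc (-0.73, 0.0191). It was higher for Col13a1 (1.86, adjusted p = 0.0415). For Nid2, Lama4, Ccn2, Col13a1, Postn and Adamts4, at least 1 of the 4 LSEC and thymus groups was under the limit for testing. Adamts4 was under it in all 4. Nid2 against thymus passed in all 24 alternative settings, and every other difference listed here missed the threshold in at least 1.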

How the results depend on the processing

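No printed matrix gene difference that passed changed direction in any setting. Differences near 0 did. In LSEC, Sparc turned to -0.01 with median centring and -0.03 with the mean of probe sets, and leaving out single arrays took Nid1 from -0.05 to 0.09 and Col4a2 from -0.04 to 0.24. In lung, leaving out single arrays took Ccn2 from -0.06 to 0.4 and Col6a1 from -0.2 to 0.19. Between control LSEC and lung, the mean of probe sets gave -0.01 for Sparc, -0.32 for Hspg2 and 0.00 for Nid1, median centring gave 0.13 for Nid1 and 0.01 for Adamts1, and the deposited values gave 0.05 for Nid1. Between control lung and thymus, Postn ranged from -0.07 to 0.37 with single arrays left out. The cause was not tested. Over the 43 genes the median in LSEC, -0.04, was 0.02 without control array 1 and 0.06 without Cre+ array 1.

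Counts of passing matrix genes moved as follows. Without the filter on dim genes, 7 passed in LSEC (12 as reported), 1 in thymus (2), 0 for LSEC minus lung (3) and 4 for LSEC minus thymus (11). Over all genes the shares were 2.93%, 0.132%, 0.165% and 0.671%, against 6.06%, 0.414%, 0.614% and 2.34% as reported. With only the arrays compared in the fit, which leaves fewer residual degrees of freedom, the matching counts were 6, 0, 0 and 4. The shares of all genes were then 2.75%, 0.0307%, 0.292% and 0.982%. In thymus, 1 gene passed on deposited values (0.215% of all genes), 1 with the mean of probe sets (0.272%) and 1 with array weights (0.222%). There 5 passed with the 60th percentile filter (1.12%) and 6 with trend and robust (0.89%). For LSEC minus lung 5 passed with trend and robust (0.959% of all genes) and 5 with array weights (1.29%). In lung 2 passed with array weights (0 as reported), with 0.414% of all genes against 0.107% as reported. The cause of the last 8 was not tested.

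Leaving out single arrays gave 9 to 12 in LSEC, 0 to 1 in lung (1 without Cre+ LSEC array 3), 0 to 4 in thymus, 0 to 3 for LSEC minus lung (1 without Cre+ lung array 2 or either control thymus array) and 2 to 11 for LSEC minus thymus. A left-out array can leave a lone sample, which is then assumed to vary like the other groups. Over all genes, 493 passed in LSEC without control array 2 (790 as reported), and in the other contrasts the share of all genes moved too.

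For same-numbered control and Cre+ arrays, deviations had r of -0.309, -0.092 and -0.255 in LSEC, -0.235 in lung and 0.052 in thymus. With 2 arrays a group, crossing the numbers must give r of the same size and the opposite sign, as in lung (0.235) and thymus (-0.052). In LSEC, pairs with unlike numbers had r between -0.094 and 0.328. With so few arrays a group, these values cannot decide whether the numbers pair samples. With the replicate block, 8 passed in LSEC, 0 in lung, 0 in thymus, 0 for LSEC minus lung and 1 for LSEC minus thymus. Over all genes, in the same order, 2.7%, 0%, 0.0767%, 0.00767% and 0.176% passed with it. With the lung numbers crossed, an alternative added after the data were seen, the block gave 8, 0, 0, 0 and 2. The shares of all genes were then 3.21%, 0.023%, 0.0921%, 0.115% and 0.66%.

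Nid2, Ccn2, Lama4, Col5a2 and Col13a1 passed in LSEC in all 24 settings, Lamc1 and Bgn in 23 (Bgn missed at 0.0545 with only the arrays compared). Sparcl1 missed in 5, Col6a3 in 7 and Adamts4 in 10. Of the differences between control sources that passed and are printed, Col4a2 between LSEC and lung missed in 5 of 22 settings.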
